A study of Mus musculus with 12 samples.

Results

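A set of 36 proliferation and cell cycle genes was read in RNA sequencing tables of mouse adipose tissue, 36 of the 24890 gene features listed. The set was chosen by name, each symbol stood at 1 locus, and none had a failed estimate. It was split by role into 13 genes of DNA replication and entry into S phase (Mcm2, Mcm3, Mcm4, Mcm5, Mcm6, Mcm7, Pcna, Rrm1, Rrm2, Tyms, Ccne1, Ccne2 and E2f1) and 23 genes of the G2 phase and mitosis (Mki67, Top2a, Cdk1, Ccnb1, Ccnb2, Ccna2, Aurka, Aurkb, Bub1, Bub1b, Birc5, Cdc20, Plk1, Kif11, Kif20a, Kif23, Cenpa, Cenpe, Nusap1, Tpx2, Ube2c, Ttk and Foxm1). The tables held 12 libraries in 4 groups of 3. The groups were adipocytes and stromal vascular cells (SVCs), the mixed cells of fat tissue that are not adipocytes, each from epididymal adipose tissue (EAT), a visceral fat depot, and from inguinal adipose tissue (IAT), a subcutaneous depot. Every library came from untreated male C57BL/6J mice at 18 weeks and carried the label NCD, and collagenase I had been used to part the fractions. The labels do not say whether a library holds 1 mouse or pooled mice, and p-values speak only to the variation among the libraries at hand.

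Before a cell divides, it copies its DNA in S phase and then separates the copies in mitosis. The Mcm2 to Mcm7 proteins form the ring-shaped helicase that opens the double helix, proliferating cell nuclear antigen (Pcna) clamps the polymerase to the template, and Rrm1, Rrm2 and Tyms supply deoxynucleotides, under E2F transcription factors and cyclin E. The mitotic genes are switched on later, in G2, when cyclin A and cyclin B partner Cdk1, and then kinases, motor proteins and checkpoint proteins build and control the spindle. Mature adipocytes are held not to divide, and dividing cells of fat tissue lie among its progenitors, endothelial cells and immune cells.

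Promoters of the roles differed in the motifs they held. RefSeq promoters (build GRCm38.p6, 250 bases before to 50 after the start of a gene) were matched by symbol for 29 of the 36 genes. The motif TTTGAA, the core of the cell cycle homology region bound by repressor and activator complexes of late cell cycle genes, was present on either strand in 13 of 18 mitosis promoters and in 1 of 11 replication promoters, that of Mcm2, against 17.9% of all 32851 promoters of that length. CCAAT, the site of the factor NF-Y, was found in 16 of 18 mitosis promoters and 8 of 11 replication promoters, against 37.4% of all. Both motifs together were in the same 13 of 18 mitosis promoters, against 6.95% of all. An E2F word (TTTGGCGC, TTTCGCGC, TTTCCCGC or TTTGCCGC) stood in 4 of 11 replication promoters (Mcm3, Mcm5, Mcm6 and Mcm7) and in 1 of 18 mitosis promoters (Cdk1), against 2.26% of all. No motif is contained in another. A match describes the letters of the window only.

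The promoters printed here belong to the genes of each role with the smallest p in the depot comparison of SVCs, among genes with a promoter in the table, which holds none for Aurkb. Each is given 5′ to 3′ on the strand of the gene, in lower case with matches to CCAAT and TTTGAA in capitals (ATTGG and TTCAAA where the match is on the other strand), and only the stretch that lies in no annotated exon of GENCODE vM21 is shown, so that Mcm7, whose window considered here lies in annotated exons, is left out.
Ccne1: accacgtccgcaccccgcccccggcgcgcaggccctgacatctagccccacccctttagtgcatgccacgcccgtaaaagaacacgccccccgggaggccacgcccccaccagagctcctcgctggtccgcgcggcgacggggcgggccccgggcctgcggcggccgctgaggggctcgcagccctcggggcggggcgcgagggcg
Rrm1: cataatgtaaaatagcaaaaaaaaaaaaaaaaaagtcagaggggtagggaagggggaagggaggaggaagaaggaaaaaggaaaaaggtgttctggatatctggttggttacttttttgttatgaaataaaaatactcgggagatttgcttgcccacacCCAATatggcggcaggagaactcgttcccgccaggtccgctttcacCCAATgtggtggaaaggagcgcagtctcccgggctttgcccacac
Mki67: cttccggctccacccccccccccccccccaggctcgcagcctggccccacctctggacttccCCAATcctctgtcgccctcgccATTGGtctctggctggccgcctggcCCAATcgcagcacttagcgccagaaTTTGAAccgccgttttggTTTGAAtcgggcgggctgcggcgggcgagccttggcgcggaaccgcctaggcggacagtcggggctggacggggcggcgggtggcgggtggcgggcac
Aurka: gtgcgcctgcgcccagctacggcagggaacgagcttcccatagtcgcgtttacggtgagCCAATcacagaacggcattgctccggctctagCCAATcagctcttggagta
Bub1b: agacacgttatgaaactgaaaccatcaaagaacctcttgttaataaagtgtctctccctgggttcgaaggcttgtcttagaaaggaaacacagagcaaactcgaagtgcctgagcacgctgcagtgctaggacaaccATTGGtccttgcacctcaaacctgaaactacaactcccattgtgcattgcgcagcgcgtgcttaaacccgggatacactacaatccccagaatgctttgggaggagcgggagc
In GRCm38.p6 these stretches are chr7:38107535-38107740 (minus strand) for Ccne1, chr7:102441445-102441694 (plus strand) for Rrm1, chr7:135716380-135716629 (minus strand) for Mki67, chr2:172370571-172370680 (minus strand) for Aurka and chr2:118597961-118598210 (plus strand) for Bub1b. The promoter of Mki67 held 3 CCAAT and 2 TTTGAA matches, Rrm1 held 2 CCAAT and no TTTGAA, and Ccne1 held neither. Of the 2 promoters listed for Mcm7, 1 held 3 CCAAT and 2 E2F matches and the other 1 CCAAT, and neither held TTTGAA. Aurka and Bub1b each had 1 TTTGAA in the part of the window that is not printed.

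Levels are deposited as FPKM, a fragment count divided by transcript length and sequencing depth, with bounds that cover counting error. Each library rested on an estimated 14200000 to 24700000 fragments in genes, and 10726 to 12425 features reached 1 FPKM. Around 0.5 FPKM, where many of the mitotic genes stood in adipocytes, the median deposited bound was 31.6% to 41.4% of the level, and around 10 FPKM it was 6.60% to 8.42%. Libraries of 1 group correlated across genes at r = 0.982 or more. The labelled fractions showed their markers, with 7 adipocyte genes summing to 9477 to 10265 and 11725 to 14124 FPKM in IAT and EAT adipocytes and to 76.3 to 87.8 and 31.2 to 36.4 in the SVCs. Of the 36 genes, 32 had at least 1 FPKM in at least 3 libraries and were tested. The other 4, Ccne2, Bub1, Cenpe and Ttk, reached 1 FPKM in no library. A further 17 (1 of replication, 16 of mitosis) passed this filter only through SVC libraries and 4 of those, Ccnb1, Kif11, Kif20a and Tpx2, only through EAT SVCs, so that counts of each comparison are also given without the filter over all 36.

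The exons of 6 of the genes share more than 5% of their bases with a neighbour on the opposite strand, and the strand of the reads is not given in the sources used here. These are Kif20a (29.3%, with Cdc23), Ube2c (22.8%, with Tnnc2), Ccne2 (17.4%, with Ints8), Mcm7 (12.6%, with Ap4m1), Ccna2 (12.5%, with Exosc9) and Plk1 (7.09%, with Gm44985). In GRCm38 coordinates of the deposited tables, Mki67 lies at chr7:135689788-135716379, Aurka at chr2:172356190-172370570, Bub1b at chr2:118598211-118641592, Ccne1 at chr7:38097984-38107490, Mcm7 at chr5:138164589-138171862, Rrm1 at chr7:102441695-102469771, E2f1 at chr2:154559400-154569892 and Pcna at chr2:132249286-132253180. The annotation also names pseudogene copies of Pcna, Tyms, Ccnb1 and Ccnb2. The values of these 10 genes can hold reads of the neighbour or the copy.

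Transcripts of both roles were less abundant in adipocytes than in the SVCs of the same depot, with a lower median share for mitosis genes. In bulk samples, fewer cells of a type and less RNA per cell cannot be told apart. Without the filter, 35 of the 36 genes were called lower in EAT adipocytes (limma on log2(FPKM + 1), adjusted p under 0.05) and 36 of 36 in IAT adipocytes, where 49.0% and 45.3% of all 20312 features were. With the filter, the counts were 31 and 32 of 32, with none higher, against 52.7% lower and 31.1% higher of 13175 features in EAT and 53.9% lower and 29.8% higher in IAT. The median adipocyte level was 13.8% of the SVC level for the 23 mitosis genes in EAT and 15.9% in IAT, and 32.6% and 25.7% for the 13 replication genes. On the log2(FPKM + 1) scale, which compresses low levels, the medians did not keep this order, at -1.21 and -0.96 for mitosis genes and -1.27 and -1.49 for replication genes.

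Rrm2, the inducible small subunit of ribonucleotide reductase, had the steepest step among the replication genes of EAT. Its level was 5.54, 4.91 and 6.02 FPKM in EAT SVCs and 0.495, 0.495 and 0.676 in EAT adipocytes, a log2 difference of -2.06 ± 0.078 (adjusted p = 5.22e-11). It was 5.18, 5.69 and 5.63 in IAT SVCs and 0.743, 0.753 and 0.812 in IAT adipocytes (-1.88 ± 0.078, adjusted p = 1.19e-10). Every adipocyte library lay below 1 FPKM and every SVC library above 4, so that Rrm2 passed the filter only through SVC libraries. Rrm1, the large subunit of the same enzyme, kept 32.0% of its SVC level in EAT adipocytes and 41.3% in IAT adipocytes. Among the helicase genes, Mcm6 differed by -1.81 ± 0.066 (adjusted p = 3.26e-11) in EAT and -2.32 ± 0.066 (adjusted p = 3.33e-12) in IAT.

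Mitosis genes with the largest log2 differences in EAT were Cenpa, the histone variant of centromeres, Kif23, a kinesin of cell separation, and Ccnb2 (cyclin B2). Cenpa stood at 10.4, 11.6 and 10.9 FPKM in EAT SVCs against 1.69, 1.17 and 1.29 in EAT adipocytes (-2.33 ± 0.092, adjusted p = 7.11e-11). In IAT it stood at 9.81, 11.2 and 10.8 against 0.699, 0.485 and 0.563 (-2.87 ± 0.092, adjusted p = 9.94e-12). The groups of each depot lay far apart. Kif23 differed by -2.08 ± 0.082 (adjusted p = 6.87e-11) in EAT and -2.20 ± 0.082 (adjusted p = 4.00e-11) in IAT, and Ccnb2 by -2.17 ± 0.16 (adjusted p = 2.66e-08) and -1.55 ± 0.16 (adjusted p = 7.86e-07). Mki67, which encodes the chromosome-coating protein Ki-67, kept 9.54% of its SVC level in EAT adipocytes and 6.86% in IAT adipocytes. Kif23, Ccnb2 and Mki67 passed the filter only through SVC libraries, where they stood higher.

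Some genes kept much of their SVC level in adipocytes. Ccne1 (cyclin E1), which partners Cdk2 at the start of S phase, stood at 5.63, 3.99 and 4.79 FPKM in EAT adipocytes and 4.83, 4.89 and 5.22 in EAT SVCs. These groups overlapped, and the difference of -0.05 ± 0.096 was not called (95% interval -0.26 to 0.16). In IAT it was lower in adipocytes (-0.79 ± 0.096, adjusted p = 5.49e-06). Mcm7 kept 87.4% of its SVC level in EAT (-0.18 ± 0.074, adjusted p = 0.0381) and 61.8% in IAT (-0.63 ± 0.074, adjusted p = 3.28e-06). The EAT values of Mcm7 overlapped between the fractions, at 8.64, 8.51 and 10.0 in adipocytes and 10.6, 10.6 and 9.91 in SVCs. Scaled by the median of ratios, the EAT difference turned to 0.17 (adjusted p = 0.0371) for Mcm7 and to 0.27 (adjusted p = 0.0311) for Ccne1, so that the replication genes split into 2 higher and 9 lower, against 42.5% and 40.7% of features. The EAT call of Mcm7 was lost in 8 further settings, among them the replicate number as a block (adjusted p = 0.0564) and each fit without EAT adipocyte replicate 1 or 2, IAT adipocyte replicate 3 or EAT SVC replicate 1 or 2. Median-of-ratios scaling raises the median log2 difference of all features from -0.31 to 0.03 in EAT and from -0.34 to 0.02 in IAT, and in the adipocyte depot comparison from -0.10 to 0.00. It also ended the call of Tyms in EAT (adjusted p = 0.0761). Nusap1, a spindle microtubule protein, was the mitosis gene with the highest share, 65.6% in EAT and 57.5% in IAT, and median-of-ratios scaling ended its calls too (adjusted p = 0.222 and 0.0736).

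Markers of other cells were present in the adipocyte fraction as well. The median adipocyte level was 12.7% of the SVC level over 8 macrophage markers in EAT and 3.93% in IAT, 17.5% and 18.1% over 6 endothelial markers, 3.86% and 3.79% over 7 progenitor markers, and 1.09% and 1.36% over 8 T cell markers, of which Cd3d and Cd8b1 were listed at 0 in every EAT adipocyte library. The mitosis genes stood in adipocytes at median shares near those of endothelial markers, and in EAT of macrophage markers, and above those of T cell and progenitor markers. The part of these cells in the levels of the adipocyte fraction was not tested.

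**Figure D1:**
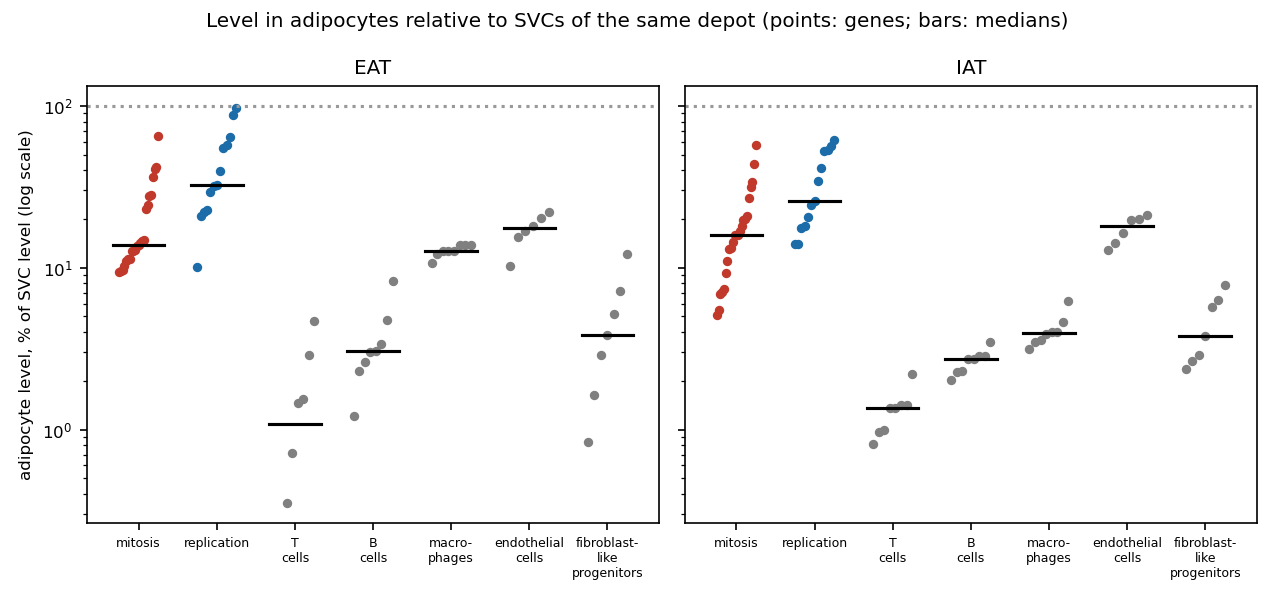
Mean level in adipocytes as a percent of the mean level in SVCs of the same depot (vertical, log scale) for each gene of the named lists, in EAT (left) and IAT (right). Points are genes, ordered by value within a list, horizontal bars are list medians, and the dotted line marks 100%, while the T cell markers Cd3d and Cd8b1, at 0 in EAT adipocytes, fall outside the log axis; the median is 13.8% for mitosis genes and 32.6% for replication genes in EAT.

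Between the depots, SVCs of IAT had lower levels of most mitosis genes than SVCs of EAT. Of the 20 mitosis genes tested, 15 were lower in IAT and 1, Aurka, was higher, against 26.2% lower and 14.0% higher of all 13175 features. Without the filter 16 of all 23 were lower and 1 higher, against 24.3% and 11.8% of 20312 features. The median log2 difference over all 23 was -0.36, and over all features tested -0.06. The lower genes were Mki67, Aurkb, Bub1b, Tpx2, Foxm1, Cdk1, Ccnb1, Kif11, Top2a, Kif20a, Birc5, Plk1, Ccnb2, Ccna2 and Kif23, and without the filter also Cenpe.

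Mki67 had the largest difference. It stood at 5.58, 4.04 and 4.78 FPKM in EAT SVCs and at 2.05, 1.74 and 2.10 in IAT SVCs, a log2 difference of -0.96 ± 0.089 (adjusted p = 2.38e-06). The lowest EAT library was well above the highest IAT library. Aurkb, the kinase of the chromosomal passenger complex that corrects spindle attachments, stood at 2.91, 2.58 and 2.83 in EAT and 1.71, 1.19 and 1.32 in IAT (-0.65 ± 0.086, adjusted p = 5.55e-05). Its partner Birc5 (survivin) stood at 5.37, 4.42 and 5.37 and 3.22, 3.24 and 2.85 (-0.56 ± 0.14, adjusted p = 0.00556). For both genes the groups did not overlap. Bub1b, a spindle checkpoint protein, stood at 2.57, 2.63 and 2.43 and 1.53, 1.48 and 1.47 (-0.51 ± 0.069, adjusted p = 7.37e-05), with a narrow spread in each depot.

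The kinase Cdk1, which drives entry into mitosis, stood at 2.24, 2.22 and 2.46 FPKM in EAT SVCs and 1.60, 1.49 and 1.35 in IAT SVCs (-0.42 ± 0.066, adjusted p = 2.49e-04). Its partner Ccnb1 (cyclin B1) stood at 1.48, 1.25 and 1.85 and 0.811, 0.733 and 0.854 (-0.48 ± 0.079, adjusted p = 3.38e-04). Ccnb2 (cyclin B2), stood at 7.98, 7.15 and 8.29 and 4.83, 4.48 and 5.25 (-0.59 ± 0.16, adjusted p = 0.00911). The depots did not overlap for any of these 3 genes. Of them, Ccnb1 was tested only because EAT SVCs reached 1 FPKM. Foxm1, the transcription factor that activates G2 genes, stood at 2.09, 1.95 and 1.96 and 1.35, 1.43 and 1.23 (-0.36 ± 0.057, adjusted p = 2.40e-04). Top2a, the topoisomerase that untangles sister DNA, stood at 4.79, 3.95 and 4.30 and 3.01, 2.66 and 3.29 (-0.42 ± 0.086, adjusted p = 0.00173). Both were lower in every IAT library than in any EAT library.

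Among spindle motors and their regulators, Tpx2, which activates Aurka on microtubules, differed by -0.48 ± 0.072 (adjusted p = 1.65e-04). The motor Kif11, which pushes spindle poles apart, differed by -0.47 ± 0.082 (adjusted p = 6.14e-04), and Kif20a, a motor of the late spindle, by -0.31 ± 0.068 (adjusted p = 0.00270). Like Ccnb1, these 3 genes were tested only because EAT SVCs reached 1 FPKM. Plk1, a kinase of spindle assembly, differed by -0.28 ± 0.071 (adjusted p = 0.00756). The differences of Ccna2 (cyclin A2, -0.37 ± 0.12, adjusted p = 0.0275) and Kif23 (-0.24 ± 0.082, adjusted p = 0.0337) were nearest to the threshold. With a pseudocount of 0.1 in place of 1, Ccnb2, Ccna2, Birc5, Plk1 and Kif23 were no longer called, at adjusted p of 0.0667 to 0.275. With median-of-ratios scaling, Kif20a fell under the filter and was not tested. This scaling ended the calls of Ccna2 and Kif23 (adjusted p = 0.125 and 0.221). So did leaving out 1 SVC library, any of the 6 for Kif23 (adjusted p = 0.0556 to 0.114) and replicate 1 or 3 of either depot for Ccna2 (adjusted p = 0.0603 to 0.0974).

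Aurka, the kinase that matures centrosomes and spindle poles, went the other way. It stood at 2.22, 2.11 and 2.39 FPKM in EAT SVCs and at 3.31, 3.76 and 3.40 in IAT SVCs (0.47 ± 0.064, adjusted p = 7.26e-05), and every IAT library was above every EAT library. Cdc20, an activator of the anaphase-promoting complex, stood at 3.43, 3.73 and 4.17 and 4.99, 4.78 and 3.80, groups that overlapped, and its difference of 0.21 ± 0.096 was not called (adjusted p = 0.111). With median-of-ratios scaling it was called, at 0.28 (adjusted p = 0.0445), and the mitosis genes split into 2 higher and 12 lower, against 18.5% and 18.9% of features. Also not called were Cenpa (-0.05 ± 0.092), Nusap1 (-0.15 ± 0.093) and Ube2c, the ubiquitin-conjugating enzyme of the same complex (-0.26 ± 0.13). For Cenpa, with 10.4, 11.6 and 10.9 FPKM in EAT and 9.81, 11.2 and 10.8 in IAT, the 95% interval was -0.25 to 0.16.

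**Figure D2:**
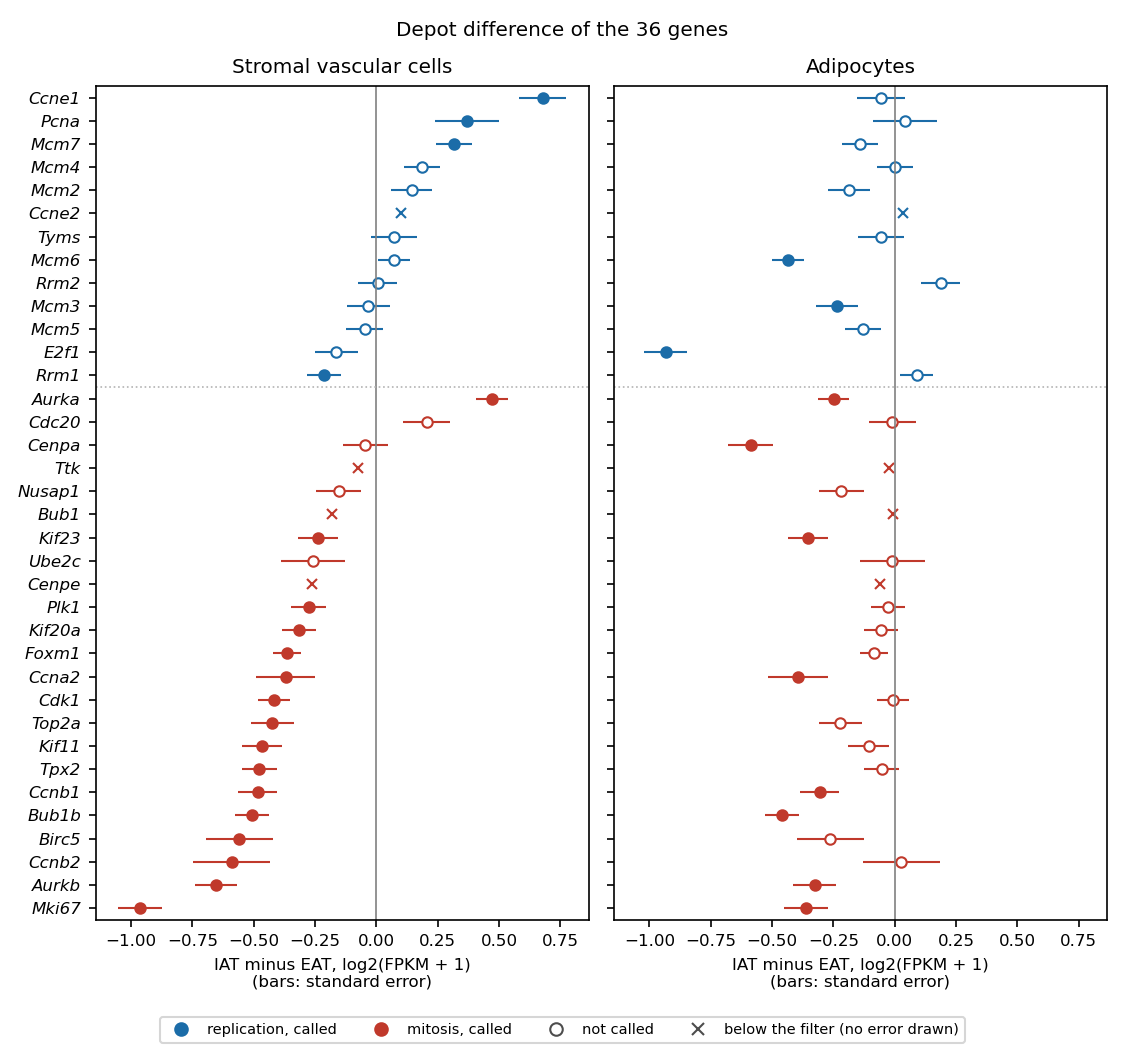
Log2 difference of IAT minus EAT, on the log2(FPKM + 1) scale, with its standard error (horizontal), for each of the 36 genes (vertical) in SVCs (left) and adipocytes (right), ordered within each role by the SVC difference. Filled points passed limma's adjusted p threshold of 0.05, open points did not, and crosses mark the 4 genes below the filter; in SVCs, 15 mitosis genes lie on the EAT side and Ccne1 (0.68) and Aurka (0.47) on the IAT side.

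The replication genes of the same SVC libraries did not share this direction. Of 12 tested, 3 were higher in IAT (Ccne1, Mcm7 and Pcna), 1 was lower (Rrm1) and 8 were not called, against 14.0% higher and 26.2% lower of all features. Without the filter, 2 of 13 were higher and 1 was lower, against 11.8% and 24.3% of 20312 features. The median log2 difference over all 13 was 0.07. Scaled by the median of ratios, 5 were higher (Mcm2, Mcm4, Mcm7, Pcna and Ccne1) and none was lower, against 18.5% and 18.9% of features. No test of the difference between the roles was made, since the lists were chosen with results known.

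Ccne1 stood at 4.83, 4.89 and 5.22 FPKM in EAT SVCs and at 8.66, 8.49 and 8.55 in IAT SVCs (0.68 ± 0.096, adjusted p = 1.05e-04), with close replicates and a wide gap between the depots. Mcm7 stood at 10.6, 10.6 and 9.91 and 13.5, 13.1 and 12.9 (0.32 ± 0.074, adjusted p = 0.00420), again without overlap, but was not called after rescaling to TPM (adjusted p = 0.109). Pcna, the most abundant of the 36 genes in all 4 groups, stood at 185, 171 and 193 and 239.5, 235 and 235 (0.37 ± 0.13, adjusted p = 0.0382). Its call was lost without the filter and without any 1 of the 6 SVC libraries (adjusted p = 0.0548 to 0.116).

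Rrm1 was lower in IAT, at 7.77, 7.69 and 7.64 FPKM in EAT SVCs and 6.72, 6.02 and 6.78 in IAT SVCs (-0.21 ± 0.068, adjusted p = 0.0245). Its call was lost without EAT SVC replicate 1 or 3, without IAT SVC replicate 2 and with median-of-ratios scaling, at adjusted p of 0.0565 to 0.174. Without each of these 3 libraries, 2 of the replication genes were called rather than 4. The partner subunit Rrm2 showed 0.00 ± 0.078 (95% interval -0.17 to 0.18), and its depots overlapped. Of the helicase genes beside Mcm7, Mcm2, Mcm3, Mcm4, Mcm5 and Mcm6 showed differences of 0.14 ± 0.084, -0.03 ± 0.086, 0.19 ± 0.073, -0.05 ± 0.075 and 0.07 ± 0.066, and none was called. E2f1, the activator of S phase genes, showed -0.16 ± 0.087, and Tyms, the thymidylate synthase, 0.07 ± 0.093, neither called. Ccne2 (cyclin E2) lay between 0.267 and 0.806 FPKM in all libraries.

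**Figure D3:**
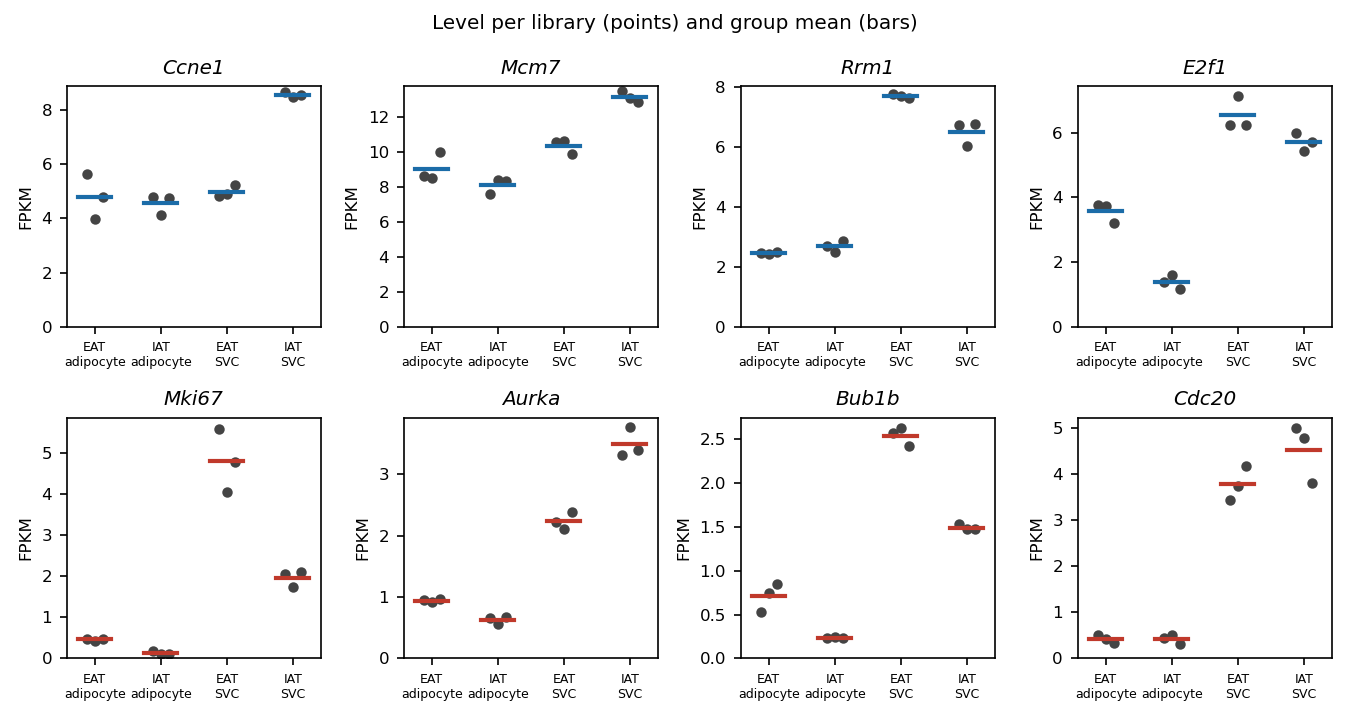
Level in FPKM (vertical, from 0) of 4 replication genes (top row) and 4 mitosis genes (bottom row) in each of the 4 groups. Points are libraries and bars are group means; in IAT SVCs, Mki67 and Bub1b lie below and Ccne1 and Aurka above every EAT SVC library.

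Summed levels of the 36 genes are given as a description. The 23 mitosis genes summed to 78.1, 73.6 and 79.2 FPKM in the EAT SVC libraries and to 58.7, 58.6 and 57.1 in the IAT SVC libraries, a ratio of group means of 0.756 ± 0.0316. For these ratios, the value after ± carries over the SDs of single libraries of both groups and is not the error of the group means. The 13 replication genes summed to 265, 251 and 272 in EAT and 328, 319 and 320.4 in IAT, a ratio of 1.23 ± 0.0541. Pcna alone made up 60.5% to 73.6% of the replication sum, and without it the ratio was 1.08 ± 0.0294. Per 100 FPKM of replication genes other than Pcna, mitosis genes came to 97.7, 93.0 and 99.98 FPKM in EAT SVCs and to 66.3, 69.6 and 67.0 in IAT SVCs, with no overlap between the depots. In adipocytes they came to 51.3, 41.0 and 38.6 in EAT and 39.1, 32.4 and 33.9 in IAT, which overlapped. This ratio is taken within a library and does not move with the scaling between libraries. The list of 34 further mitosis genes did not have a lower sum in IAT, at 108, 97.0 and 112 FPKM in EAT SVCs and 106, 105 and 108 in IAT SVCs. Pttg1 (means of 36.8 and 42.2 FPKM in EAT and IAT SVCs) and Smc4 (10.9 and 22.7) weighed most in that sum. By gene and without the filter, 21 of the 34 were called lower in IAT SVCs and 1 higher, against 24.3% and 11.8% of 20312 features. The median log2 difference over all 34 was -0.23, and over all features tested -0.06. The 28 further replication genes summed to 108, 109 and 112 and 121, 123 and 115.

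**Figure D4:**
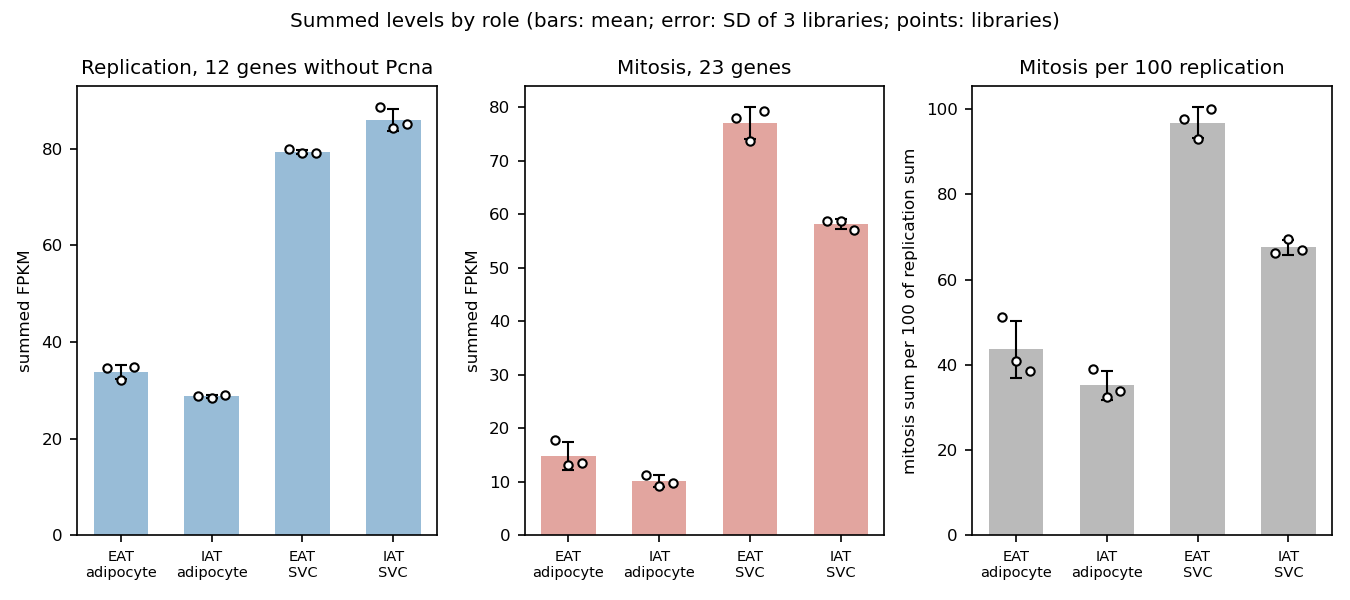
Summed FPKM of the 12 replication genes other than Pcna (left), of the 23 mitosis genes (middle), and the mitosis sum per 100 of that replication sum (right) in the 4 groups. Bars are means from 0, error bars the SD of 3 libraries and open points the libraries; in IAT SVCs the mitosis sum was lower than in EAT SVCs, and the mitosis sum per 100 was 66.3, 69.6 and 67.0.

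Cell type markers also differed between the SVC fractions of the depots. Macrophage markers summed to 2153 to 2326 FPKM in EAT SVCs and 1452 to 1620.1 in IAT SVCs, with 7 of 8 lower in IAT. Here and for the marker lists that follow, lower and higher count calls of the same fit, in which 26.2% of all features were lower in IAT SVCs and 14.0% higher. Mesothelial markers summed to 393 to 458 and 1.51 to 1.90, with 6 of 6 lower, and Wt1, Upk1b and Upk3b stayed at or under 0.0518 FPKM in all IAT libraries. Plasma cell markers summed to 66.4 to 79.9 and 42.4 to 45.1, with 3 of 5 lower. Each of these lists had a lower sum in IAT SVCs.

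Markers of T cells and B cells were higher in IAT SVCs. T cell markers summed to 18.1 to 19.7 FPKM in EAT SVCs and 129 to 208 in IAT SVCs, and B cell markers to 42.4 to 45.6 and 170.2 to 265, with 8 of 8 higher in each list. Of 7 genes of germinal centre B cells, which divide fast, 3 were tested and 2 were lower and none higher. Endothelial markers summed to 488 to 523 and 625 to 755 (3 of 6 higher), progenitor markers to 4403 to 5109 and 5303 to 5423 (3 of 7 higher, 4 lower), and haemoglobin and other erythroid genes to 17199 to 22128 and 24937 to 30085 (4 of 7 features higher). Lymph node stroma genes summed to 25.8 to 83.4 and 98.3 to 139.8, with 3 of 4 tested higher in IAT. The fourth, Ccl21a, was not called, with a mean of 31.4 FPKM in EAT SVCs and 12.6 in IAT SVCs. The 7 adipocyte genes were all higher in IAT SVCs. The part of these cell types in the depot differences of the cell cycle genes was not tested.

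In adipocytes, every call between the depots was toward lower levels in IAT. Of the 12 replication genes tested, 3 were lower (E2f1, Mcm6 and Mcm3), and of the 20 mitosis genes 8 were lower (Bub1b, Cenpa, Kif23, Mki67, Aurka, Ccnb1, Aurkb and Ccna2), against 27.3% lower and 10.3% higher of all features. The 3 of 12 replication genes were near the share of all features. Without the filter, 2 of the 13 replication genes and 8 of the 23 mitosis genes were lower and none was higher, against 17.2% and 6.74% of 20312 features. Median log2 differences were -0.06 over all 13 replication genes, -0.11 over all 23 mitosis genes and -0.10 over all features tested.

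E2f1 had the largest difference. It stood at 3.77, 3.72 and 3.20 FPKM in EAT adipocytes and at 1.40, 1.60 and 1.18 in IAT adipocytes (-0.93 ± 0.087, adjusted p = 4.09e-06), while its SVC levels were 6.22, 7.14 and 6.23 and 6.00, 5.44 and 5.72. Mcm6 stood at 3.12, 2.84 and 2.72 and 1.90, 1.94 and 1.78 (-0.44 ± 0.066, adjusted p = 2.45e-04). Neither gene overlapped between the depots. Mcm3 stood at 2.24, 1.94 and 2.69 and 1.72, 1.69 and 1.94 (-0.24 ± 0.086, adjusted p = 0.0478), values that overlapped. Its call was lost in 14 of 21 other settings, among them each fit without 1 library other than EAT adipocyte replicates 1 and 2 (adjusted p of 0.0547 to 0.222 over the 14).

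Scaled by the median of ratios, Rrm1 (0.20, adjusted p = 0.0329) and Rrm2 (0.27, adjusted p = 0.0187) were higher in IAT adipocytes and only Mcm6 and E2f1 lower, against 16.3% and 16.8% of features. As deposited, Rrm2 showed 0.19 ± 0.078 and Rrm1 0.09 ± 0.068, not called. Pcna was not called, at 74.2, 51.3 and 53.3 FPKM in EAT adipocytes and 70.1, 56.9 and 55.6 in IAT adipocytes, with a difference of 0.04 ± 0.13 (95% interval -0.24 to 0.32).

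Mitosis genes of adipocytes were low, and 19 of the 23 had a mean under 1 FPKM in EAT and 21 in IAT. Bub1b stood at 0.530, 0.742 and 0.848 FPKM in EAT adipocytes and 0.230, 0.248 and 0.233 in IAT adipocytes (-0.46 ± 0.069, adjusted p = 2.40e-04). Cenpa stood at 1.69, 1.17 and 1.29 and 0.699, 0.485 and 0.563 (-0.59 ± 0.092, adjusted p = 3.44e-04). Mki67 stood at 0.477, 0.423 and 0.474 and 0.183, 0.107 and 0.114 (-0.36 ± 0.089, adjusted p = 0.00717). For all 3, the depots did not overlap. Kif23 differed by -0.35 ± 0.082 (adjusted p = 0.00509), Aurka by -0.25 ± 0.064 (adjusted p = 0.00901), Ccnb1 by -0.31 ± 0.079 (adjusted p = 0.00957), Aurkb by -0.33 ± 0.086 (adjusted p = 0.0102) and Ccna2 by -0.39 ± 0.12 (adjusted p = 0.0225). The call of Ccna2 was lost without IAT adipocyte replicate 2 or 3, with median-of-ratios scaling and in a fit of adipocytes alone (adjusted p = 0.0700 to 0.0812). The mitosis genes summed to 17.7, 13.1 and 13.4 FPKM in EAT and 11.3, 9.21 and 9.80 in IAT adipocytes, a ratio of 0.684 ± 0.140 (± carried over from the SDs of single libraries). For replication genes the ratio was 0.959 ± 0.164, and 0.850 ± 0.0393 without Pcna.

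Markers of other cells also differed between the adipocyte fractions, in both directions, where 27.3% of all features were called lower in IAT and 10.3% higher. Macrophage markers summed to 257 to 334 FPKM in EAT adipocytes and 53.7 to 75.9 in IAT adipocytes (8 of 8 lower), mesothelial markers to 17.1 to 19.7 and 0.479 to 0.516 (6 of 6 lower), and plasma cell markers to 5.13 to 5.78 and 2.97 to 3.23 (4 of 5 lower). Endothelial markers summed to 77.8 to 91.5 and 105 to 133, with 3 of 6 higher in IAT. Progenitor markers summed to 232 to 249 and 269 to 307 (4 of 7 higher, 1 lower), erythroid genes to 868 to 1302 and 1348 to 1729.5 (3 of 7 features higher), B cell markers to 1.23 to 1.87 and 5.68 to 6.00 (3 of 8 higher) and T cell markers to 0.324 to 0.425 and 1.69 to 2.34 (none called). Their part in the differences of the cell cycle genes was not tested.

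The test of the difference itself, the depot difference of SVCs minus that of adipocytes, called 13 of the 32 genes tested. Of these 32, 6 were higher and 7 lower, against 17.8% higher and 14.7% lower of all features, so that the higher calls were near the share of all features. Without the filter, 6 of all 36 were higher and 8 lower, against 13.4% and 14.3% of 20312 features. A higher value means that IAT stood higher relative to EAT in SVCs than in adipocytes. Among replication genes, E2f1 (0.77 ± 0.12, adjusted p = 4.07e-04), Ccne1 (0.73 ± 0.14, adjusted p = 0.00126), Mcm6 (0.51 ± 0.093, adjusted p = 0.00113) and Mcm7 (0.46 ± 0.10, adjusted p = 0.00509) were higher and Rrm1 (-0.30 ± 0.096, adjusted p = 0.0300) was lower. After rescaling to TPM, Mcm7 and Rrm1 were no longer called (adjusted p = 0.0631 and 0.0706), which left 3 higher. The call of Rrm1 was also lost without EAT adipocyte replicate 2, IAT adipocyte replicate 1 or 3, EAT SVC replicate 1 or 3 or IAT SVC replicate 2 (adjusted p = 0.0519 to 0.0840).

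Among mitosis genes, Aurka and Cenpa were higher. Aurka was higher in IAT in SVCs and lower in IAT in adipocytes (0.72 ± 0.090, adjusted p = 5.86e-05), so that its depot differences had opposite signs. Cenpa was called lower in IAT in adipocytes and not called in SVCs, and the difference between its depot differences was 0.54 ± 0.13 (adjusted p = 0.00690). Lower were Mki67 (-0.60 ± 0.13, adjusted p = 0.00300), Tpx2 (-0.42 ± 0.10, adjusted p = 0.00659), Cdk1 (-0.41 ± 0.093, adjusted p = 0.00484), Foxm1 (-0.28 ± 0.081, adjusted p = 0.0188), Kif11 (-0.36 ± 0.12, adjusted p = 0.0329) and Ccnb2 (-0.62 ± 0.22, adjusted p = 0.0492).

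These 6 lower calls depend on the pseudocount. With a pseudocount of 0.1, none of the 6 was called (adjusted p = 0.0750 to 0.955). Their values were then 0.021 for Mki67, -0.57 for Cdk1, -0.74 for Ccnb2, -0.56 for Tpx2, -0.34 for Kif11 and -0.24 for Foxm1, so that the value of Mki67 alone changed sign and those of Cdk1, Ccnb2 and Tpx2 were larger in size. Of the mitosis genes, Aurka and Cenpa were called with it. With TPM or median-of-ratios scaling, Ccnb2, Kif11 and Foxm1 were no longer called (adjusted p = 0.0508 to 0.0856). Foxm1 was also lost without IAT adipocyte replicate 3, and Kif11 in 8 of the 12 fits that left out 1 library. For Ccnb2, leaving out any 1 library other than EAT adipocyte replicate 1 and IAT adipocyte replicate 2 also ended the call.

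Other genes of the cell cycle were read from lists by function. Of 28 further replication genes, 25 were tested in SVCs, and 5 were higher in IAT and 6 lower, near the 14.0% and 26.2% of all features. Cdt1, which loads the Mcm helicase, stood at 8.23 ± 0.642 FPKM (mean ± SD of 3) in EAT SVCs and 15.1 ± 2.25 in IAT SVCs (0.79 ± 0.12, adjusted p = 1.98e-04). Orc1, of the origin recognition complex, differed by 0.38 ± 0.069 (adjusted p = 6.66e-04), and Tk1, the thymidine kinase, by -0.43 ± 0.092 (adjusted p = 0.00229). Of 34 further mitosis genes, 20 were tested, and 10 were lower in IAT SVCs and 1 was higher, against 26.2% and 14.0% of all features. Over all 34 without the filter, 21 were lower and 1 was higher, against 24.3% and 11.8% of 20312 features. Anln (anillin), a scaffold of the contractile ring, stood at 3.37 ± 0.269 and 1.05 ± 0.160 (-1.09 ± 0.075, adjusted p = 1.35e-07). Espl1 (separase), which cleaves the cohesin ring, differed by -0.52 ± 0.056 (adjusted p = 9.40e-06). Its mean was above 1 FPKM in EAT SVCs alone (1.72, with 0.901 in IAT SVCs). Smc4, a condensin subunit, was the 1 higher gene, at 10.9 ± 1.62 and 22.7 ± 2.71 (1.00 ± 0.11, adjusted p = 1.27e-05). The lists had no gene in common with the 36.

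Between the depots of adipocytes, where 10.3% of all features were higher in IAT and 27.3% lower, 2 of the 25 further replication genes were higher and 3 lower. Among them were Prim1, a primase subunit (0.63 ± 0.14, adjusted p = 0.00359), Gins2, of the helicase complex (-0.48 ± 0.083, adjusted p = 7.23e-04), and Orc6 (-0.39 ± 0.13, adjusted p = 0.0361). Of the 20 further mitosis genes, 5 were lower, near the share of all features, and none higher, with the smallest p for Anln (-0.75 ± 0.075, adjusted p = 7.92e-06), Racgap1, a regulator of cell separation (-0.53 ± 0.076, adjusted p = 1.59e-04), and Espl1 (-0.19 ± 0.056, adjusted p = 0.0172). The depot difference of SVCs minus that of adipocytes was 1.27 ± 0.16 (adjusted p = 5.24e-05) for Smc4, 0.89 ± 0.17 (adjusted p = 0.00161) for Cdt1 and -0.72 ± 0.16 (adjusted p = 0.00349) for Mcm10, which acts at the start of replication.

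Between the fractions, 18 of the 25 further replication genes were lower in adipocytes in each depot and 5 were higher, against 52.7% lower and 31.1% higher of all features in EAT and 53.9% and 29.8% in IAT. Of the 20 further mitosis genes, 19 were lower in EAT and 18 in IAT, against the same shares of all features, and none was higher. Over all 34 without the filter, 33 and 32 were lower, against 49.0% and 45.3% of 20312 features. Cdt1 differed by -2.93 ± 0.12 (adjusted p = 1.08e-10) in IAT and Tk1 by -1.90 ± 0.092 (adjusted p = 4.85e-10) in EAT. Uhrf1, which couples DNA methylation to replication, differed by -1.32 ± 0.077 (adjusted p = 3.32e-09) in EAT and -1.62 ± 0.077 (adjusted p = 4.35e-10) in IAT. Incenp, a partner of Aurkb, differed by -1.58 ± 0.088 (adjusted p = 2.00e-09) in EAT and -1.45 ± 0.088 (adjusted p = 4.82e-09) in IAT. The 5 higher replication genes were Cdc45, Gins1, Gins2 and Gins4, with Orc6 in EAT and Mcm10 in IAT. Other genes of the active helicase, to which Cdc45 and the Gins genes belong, went the other way. Gins3, with means under 1 FPKM, stood at 65.7% and 55.4% of its SVC level in EAT and IAT adipocytes, and Mcm2 to Mcm6 were lower in both. The higher genes are named here after their values were seen, and Gins2 stood at 11.1 ± 0.920 FPKM in EAT adipocytes and 4.84 ± 0.191 in EAT SVCs.

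Genes that govern entry into the cycle were read from 3 further lists. Of 5 D-type cyclin and kinase genes tested, 1 was higher and 3 were lower in EAT adipocytes than in EAT SVCs, and 4 were lower in IAT adipocytes. Of the 6 kinase inhibitors tested, 2 were higher and 4 were lower in adipocytes in each depot. In EAT, 31.1% of all features were called higher and 52.7% lower, and in IAT 29.8% and 53.9%, and with 5 and 6 genes tested these counts are read as values only. Cdkn2c (p18), an inhibitor of Cdk4 and Cdk6, stood at 269, 204 and 203 FPKM in EAT adipocytes and 11.1, 11.1 and 10.8 in EAT SVCs, a log2 difference of 4.23 ± 0.10 (adjusted p = 8.05e-13). In IAT it stood at 194, 213 and 197 and 11.3, 10.1 and 11.0 (4.10 ± 0.10, adjusted p = 1.05e-12). The fractions lay far apart, and in adipocytes the FPKM of Cdkn2c, a level per length, exceeded that of every one of the 36 genes. Ccnd1 (cyclin D1), a partner of Cdk4 and Cdk6, stood at 2.50, 2.62 and 2.66 in EAT adipocytes and 21.6, 20.5 and 20.0 in EAT SVCs (-2.59 ± 0.082, adjusted p = 1.01e-11), and differed by -2.63 ± 0.082 (adjusted p = 8.11e-12) in IAT. Cdk4 differed by -0.93 ± 0.079 (adjusted p = 1.48e-07) in EAT, and Cdk2, the partner of cyclin E, by -0.95 ± 0.079 (adjusted p = 1.23e-07). Cdk6 was under the filter, with means of 0.0900 ± 0.0346 FPKM in EAT adipocytes and 0.561 ± 0.0539 in EAT SVCs. Cdkn1a (p21) differed by -1.99 ± 0.11 (adjusted p = 1.86e-09) in EAT and -1.81 ± 0.11 (adjusted p = 4.94e-09) in IAT, and Cdkn1b (p27) by -1.54 ± 0.097 (adjusted p = 7.14e-09) and -1.96 ± 0.097 (adjusted p = 6.28e-10).

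Between the depots of SVCs, none of the 5 D-type cyclin and kinase genes tested was called. Of the inhibitors, 3 were higher in IAT SVCs and 1 was lower, against 14.0% and 26.2% of all features. Cdkn1b stood at 25.7 ± 2.47 FPKM in EAT and 38.8 ± 3.88 in IAT (0.57 ± 0.097, adjusted p = 4.45e-04), and Cdkn2d (p19) differed by 0.47 ± 0.089 (adjusted p = 9.32e-04). Cdkn2b (p15) was lower in IAT in both fractions (-0.66 ± 0.13, adjusted p = 0.00168 in SVCs and -0.66 ± 0.13, adjusted p = 0.00236 in adipocytes). In adipocytes Cdkn2b was the 1 inhibitor called, and Ccnd2 (cyclin D2) was the 1 cyclin called, lower in IAT (-0.62 ± 0.20, adjusted p = 0.0279).

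Among 9 tested pocket protein and E2F genes, E2f3 was lower in IAT in both fractions (-0.48 ± 0.065, adjusted p = 6.57e-05 in SVCs and -0.66 ± 0.065, adjusted p = 6.82e-06 in adipocytes), and E2f2 was higher in IAT SVCs (0.48 ± 0.086, adjusted p = 6.45e-04). E2f6, a repressor, was lower in IAT adipocytes (-0.53 ± 0.070, adjusted p = 9.17e-05). Rb1, the retinoblastoma protein that holds E2F factors in check, was higher in EAT adipocytes than in EAT SVCs (1.02 ± 0.092, adjusted p = 2.85e-07), as was E2f6 (1.08 ± 0.070, adjusted p = 1.00e-08), and 3 of the 9 were higher and 6 lower there, against 31.1% and 52.7% of all features. In IAT, 2 were higher and 6 lower, against 29.8% and 53.9%, with the smallest p for E2f2 (-1.09 ± 0.086, adjusted p = 6.92e-08) and E2f7 (-0.99 ± 0.079, adjusted p = 8.17e-08). The calls of fraction and of depot draw on the same 12 libraries and are not independent of each other.

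**Figure D5:**
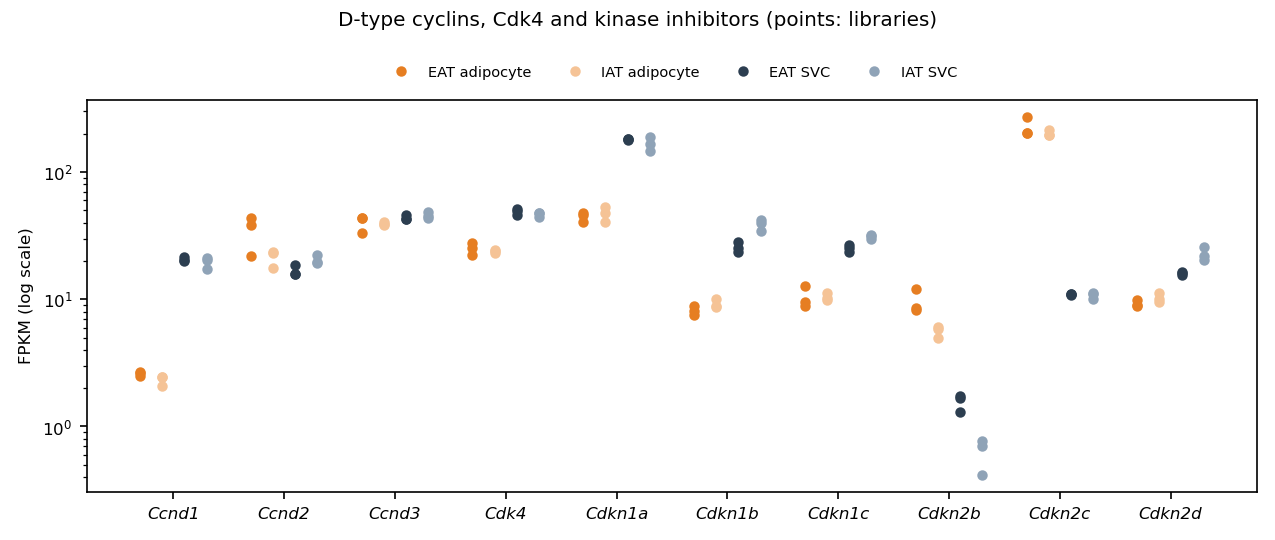
Level in FPKM (vertical, log scale) of 3 D-type cyclins, of Cdk4 and of 6 kinase inhibitors in every library, with the 4 groups side by side for each gene in colours named in the key. Points are libraries; Cdkn2c lies between 194 and 269 in adipocytes and between 10.1 and 11.3 in SVCs, and every adipocyte library of Ccnd1 lies under every SVC library.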

How the data were processed

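RNA sequencing of 12 libraries from 4 groups of 3 was read from 1 table per library. Its levels are FPKM, which the authors made with TopHat and Cufflinks on GRCm38 (mm10), per the submitters' processing notes; versions, annotation and strand are not given in the sources used here. Features that any library marked as a failed estimate were left out (9 of 24890). Differences were computed from log2(FPKM + 1) with limma 3.58.1 in R 4.3.3 (empirical Bayes with trend) on 4 group means, for the features at or above 1 FPKM in 3 or more libraries. P-values were two-sided and adjusted by Benjamini-Hochberg over all 13175 features, with a threshold of 0.05 for a call. Fold changes on this scale understate the change of low genes. The steps were tested on simulated data. Levels and sums were computed in Python 3.11.15 (NumPy 2.4.6, pandas 2.3.3, matplotlib 3.10.9).

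The groups came from the labels. The 36 genes, the 5 other cell cycle lists and the 11 marker lists were chosen with earlier results of these data known. Values were given for called genes of the 36, those with the smallest p in each role first, and for those against the majority of their role, and for up to 3 genes of each other list with the smallest p. Promoters were those of up to 3 genes per role with the smallest p between depots of SVCs. The alternatives tried were another pseudocount, filter, scaling (TPM or median of ratios), sample set or variance trend, a replicate block, and each library left out. FPKM bounds and fragment numbers cover counting error only.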

Additional observations from a re-analysis of the deposited data

Results flagged for a closer look

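The depot difference (IAT minus EAT) of 13 of the 32 genes tested differed between SVCs and adipocytes by the test of that difference in limma (adjusted p under 0.05). The 6 higher calls were near the share of all features (17.8%). Given as the SVC difference minus the adipocyte difference on the log2(FPKM + 1) scale, the values of replication genes were 0.77 for E2f1, 0.73 for Ccne1, 0.51 for Mcm6, 0.46 for Mcm7 and -0.30 for Rrm1. Those of mitosis genes were 0.72 for Aurka, 0.54 for Cenpa, -0.62 for Ccnb2, -0.60 for Mki67, -0.42 for Tpx2, -0.41 for Cdk1, -0.36 for Kif11 and -0.28 for Foxm1. Of these, E2f1 and Mcm6 were called between depots in adipocytes and not in SVCs, as was Cenpa. Ccne1, Mcm7, Rrm1, Ccnb2, Tpx2, Cdk1, Kif11 and Foxm1 were called in SVCs and not in adipocytes. Mki67 was lower in IAT in both fractions, and Aurka had opposite signs. With a pseudocount of 0.1, none of the mitosis genes with negative values was called, and the value of Mki67 was 0.021.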

How the results depend on the processing

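Over the alternatives, the genes called between depots kept their call in 389 of 419 fits in SVCs and in 213 of 231 in adipocytes, and those called between fractions in 639 of 650 in EAT and 670 of 671 in IAT, against 216 of 260 for the difference between depot differences. Kif20a fell under the filter with median-of-ratios scaling, and its fits with that scaling are not counted. Among the fits counted, 2 values changed sign. Mcm7 did so between the fractions of EAT with median-of-ratios scaling (0.17). Mki67 did so in the difference between depot differences with a pseudocount of 0.1 (0.021). For that difference, the mitosis genes called fell from 8 to 2 with a pseudocount of 0.1, to 5 with 0.5, to 5 with TPM and to 5 with median-of-ratios scaling, and the replication genes from 5 to 3 with TPM. Leaving out 1 library gave 2 to 5 replication genes called between depots in SVCs, against 4.

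Ratios of summed levels moved with the scaling, in alternatives chosen after seeing the data. IAT over EAT in SVCs was 1.23 for replication genes, 1.14 with TPM, 1.32 with median-of-ratios scaling and 1.08 without Pcna, and 0.756 for mitosis genes, 0.702 with TPM and 0.813 with median-of-ratios scaling. Adipocytes over SVCs with median-of-ratios scaling were 0.468 (replication) and 0.252 (mitosis) in EAT, from 0.356 and 0.192, and 0.375 and 0.234 in IAT, from 0.278 and 0.174. Without Pcna the replication ratios were 0.425 and 0.334. Deviations from the group means correlated at -0.31 to 0.37 between same-numbered libraries over 18 pairs, 5 of them above 0.1. The highest were replicates 1 and 3 of EAT and IAT adipocytes (0.37 and 0.35). The own number gave the highest r in 7 of the 18, so the numbers were not taken as pairs. With a replicate block, 16 mitosis and 4 replication genes were called between depots in SVCs, 9 and 3 in adipocytes, 20 and 10 between fractions in EAT, 20 and 12 in IAT, and 9 and 5 in the difference between depot differences. Depth limits the mitosis genes of adipocytes most, where most means were under 1 FPKM. Causes of these changes were not tested.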
